A study of Bos taurus with 8 samples.

Results

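The 33 genes described here act in homologous recombination and in the handling of stalled DNA replication. They were chosen by name, as 33 of the 16299 gene symbols on a bovine expression array, and each is represented by its brightest probe, by the mean over the 8 arrays. The array carried 66 probes for them, with 20 genes on several probes and 13 on 1 probe, among 51282 probes in all. Each value below is the log2 signal of a probe minus the 75th percentile of its array, so that a difference of 1 is a 2-fold difference. Levels are compared between arrays for 1 probe at a time, apart from summed levels of gene lists and ratios of paired genes. A summed level is the log2 of the added unlogged signals of a list, to which the brightest probes contribute most.

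Homologous recombination repairs a broken chromosome by copying an intact sister strand. The broken ends are first resected to single-stranded DNA, on which BRCA1, BRCA2 and their partners prepare the search for the matching sequence, and the joined molecules are then dissolved or cut apart. The Fanconi anaemia proteins unhook crosslinks between DNA strands at stalled forks and hand them to this pathway, while the kinase ATR and its effector CHEK1 slow the cell cycle when replication stalls and ATM and CHEK2 do so after breaks. Much of this machinery works in and after S phase and is transcribed mainly in dividing cells.

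The study set 4 arrays labelled pregnant against 4 labelled non-pregnant, each hybridised with Cy3-labelled RNA of 1 sample. Every sample is labelled as female and as fetal cotyledon, the tuft of fetal villi in a ruminant placental attachment, with cattle as the organism. The protocol text, which the samples of both groups share, speaks instead of buffalo and of gravid uteri obtained at slaughter, and the description field places the samples labelled pregnant after pregnancy and those labelled non-pregnant before it. No label gives a stage of gestation, an age or separate animals for the replicates, so a p-value here reflects the spread among the samples alone, part of which may be technical.

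Marker genes went against the group labels. The summed level of 14 tested trophoblast genes was 5.05 to 5.50 on the arrays labelled pregnant and 9.41 to 10.06 on those labelled non-pregnant, with 13 of 14 lower in the first group. CDX2 and PLAC1, which mark trophoblast, were well above background on 0 of the 4 arrays labelled pregnant. Of 10 tested uterine genes 8 were higher on the arrays labelled pregnant, where their sum was 6.91 to 7.91, against 3.16 to 3.87 on the other group. The groups are therefore called by their labels alone. Arrays correlated at 0.736 to 0.783 between the groups, and labelled pregnant array 4 at 0.943 to 0.951 with the other 3 of its group, which correlated at 0.977 to 0.989 among themselves. All 8 arrays lay on 1 slide and 1 scan, with the groups in different rows, so position on the slide and group cannot be told apart. The share of probes well above background was 60.6% to 66.0% per array labelled pregnant and 63.7% to 69.5% per array labelled non-pregnant, and the number of arrays limits the precision of every value.

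Of 31 tested recombination and replication stress genes 17 fell, 2 rose and 12 did not pass the test on the arrays labelled pregnant, at an adjusted p under 0.05 (limma), against 33.05% of all 12894 tested genes lower and 29.6% higher, or 62.7% changed in either direction. FANCB and BRIP1, the 2 genes not tested, were well above background on none of the 8 arrays. Called lower with a fitted difference of at least 2-fold were 15 of the 31, against 24.3% of all tested genes. With a fitted difference of at least 8-fold they were 7, against 6.58%, among them BRCA1, whose bound is 4.52-fold. BRCA1, EXO1 and CLSPN, all counted as lower, passed the filter only through the arrays labelled non-pregnant. Their direction thus follows largely from the filter, and their adjusted p-values are no independent support. The median difference was -0.99 for the 31 genes and -0.03 for all tested genes. Placing the 3 genes that have only a bound at that bound could not move it, since all 3 bounds lie beyond the median. All 4 arrays labelled pregnant lay below all 4 others for 17 of the 31, where the share of all tested genes was 32.1%, and above them for 1, where it was 28.2%. With each array centred on its median instead, 22 fell and 0 rose, while all genes moved to 41.1% lower and 21.7% higher with a median of -0.42. Of the 24 genes well above background on all 8 arrays, 12 were called lower, against 33.5% of all genes that passed the same filter.

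**Figure D1:**
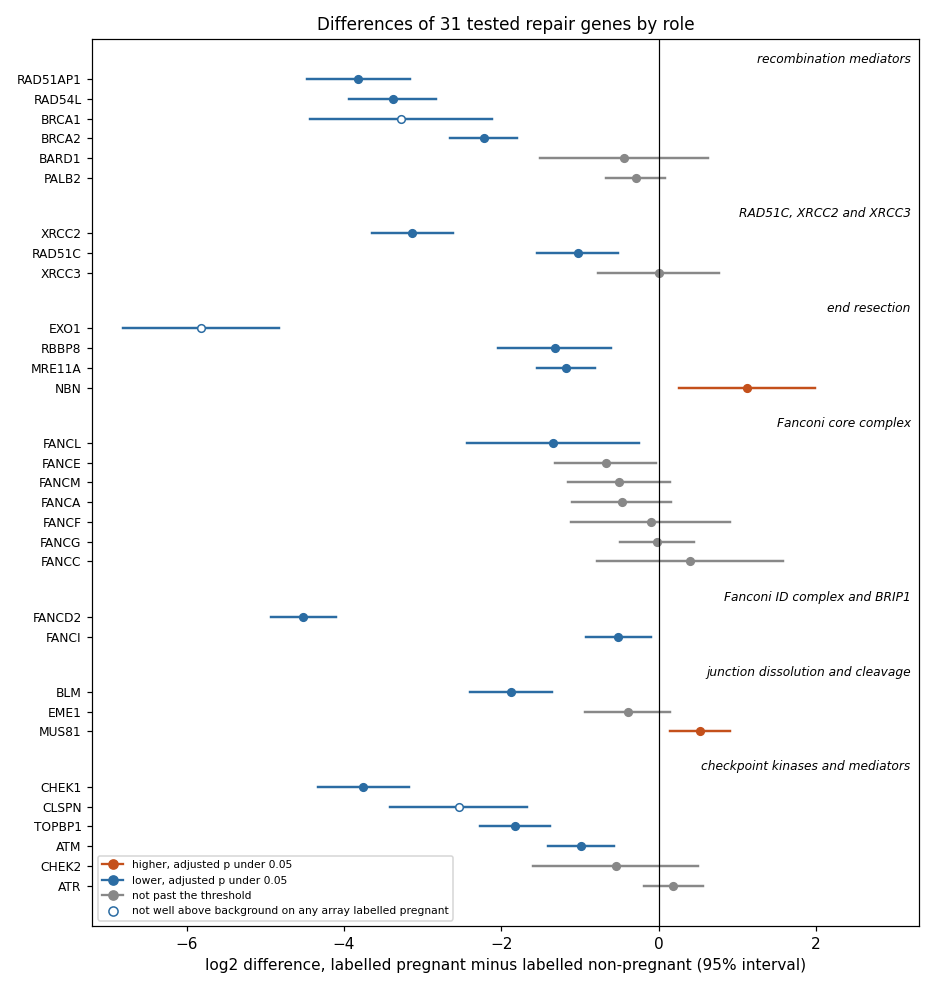
Log2 difference, arrays labelled pregnant minus arrays labelled non-pregnant, for the 31 tested genes grouped by role, with 95% intervals. EXO1, FANCD2, RAD51AP1, CHEK1, RAD54L, BRCA1 and XRCC2 lie farthest to the left, the Fanconi core complex lies mostly across 0, and NBN and MUS81 lie to the right.

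Genes of dividing cells moved with these results. All 18 tested proliferation markers were lower on the arrays labelled pregnant, with a median difference of -5.44 and a summed level of 3.13 to 3.37, against 6.69 to 7.05 on the arrays labelled non-pregnant. Between 12 and 14 of the 18 were well above background on each array labelled pregnant and all 18 on each of the others. BUB1 and CENPF, a spindle checkpoint kinase and a kinetochore protein, were above background on 0 arrays labelled pregnant. Of 19 tested S phase genes 16 were lower and 1 higher, with a median of -2.01 and sums of 6.40 to 6.71 on the arrays labelled pregnant and 8.16 to 8.75 on the others. Their part in the results on repair genes was not tested. In tissue RNA, fewer cells of a type and less RNA per cell cannot be told apart.

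The 5 probes shown here are among those whose 60 bases the scanner files place over a longer stretch of the genome, so that each crosses a gap in the genomic alignment. They were picked because for BRCA1, FANCL and BLM the whole statement on the gene rests on that probe, and because MRE11A and NBN, partners in 1 complex, differed in opposite directions. The coordinates are those of the files (build Btau_3.1 per the file headers), and the sources used here do not place probes in exons, introns or untranslated regions. The BRCA1 probe lies at chr19:44481666-44483278 on the minus strand, FANCL at chr11:42428668-42433523 (minus), BLM at chr21:21596176-21596698 (minus), the second MRE11A probe at chr15:509434-513844 (minus) and the third NBN probe at chr14:72462700-72464087 (plus). Each is written 5′ to 3′.
BRCA1: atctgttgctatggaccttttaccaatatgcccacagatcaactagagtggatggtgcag
FANCL: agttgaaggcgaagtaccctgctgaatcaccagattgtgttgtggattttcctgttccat
BLM: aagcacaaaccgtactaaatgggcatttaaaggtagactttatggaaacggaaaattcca
MRE11A: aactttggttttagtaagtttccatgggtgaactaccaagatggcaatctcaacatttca
NBN: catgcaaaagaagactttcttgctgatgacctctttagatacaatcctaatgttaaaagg

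For the counts by role from here on, the shares of all tested genes were 33.05% lower and 29.6% higher. Each role holds few genes, and differences between roles were not tested. Among the 6 recombination mediators, 4 fell and the partners BARD1 and PALB2 did not pass the test. RAD51AP1, which stimulates the pairing of DNA strands, had -5.49, -5.43, -5.15 and -5.81 on the arrays labelled pregnant and -1.89, -1.56, -2.20 and -0.95 on the arrays labelled non-pregnant. The groups did not overlap, and the probe (chr5:112445639-112445698) was well above background on 1 of the 4 arrays labelled pregnant. Its difference was -3.82 ± 0.29 (SE, limma, adjusted p = 7.40e-06), and a second probe, well above background on 0 arrays labelled pregnant, had a fitted difference of -3.44. RAD54L, a DNA motor protein of strand exchange, had -3.06, -3.15, -3.26 and -3.47 on the arrays labelled pregnant, against 0.32, -0.49, 0.34 and 0.42 on the others. All 4 arrays labelled pregnant were lower, by 3.38 ± 0.24 (SE, limma, adjusted p = 5.68e-06), and its second probe gave -3.53. The third probe cleared background on 0 arrays labelled pregnant, with a fitted difference of -2.82. BRCA2, which acts on resected single-stranded DNA to start strand exchange, averaged -0.54 ± 0.17 on the arrays labelled pregnant and 1.68 ± 0.22 on the others (SD, n = 4 each), a difference of -2.22 ± 0.19 (SE, limma, adjusted p = 1.41e-05).

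BRCA1, the ubiquitin ligase that promotes end resection and recruits BRCA2 through PALB2, cleared background on 0 of 4 arrays labelled pregnant and on all 4 of the others. It was at least 4.52-fold lower, with measured means of -7.56 ± 0.22 on the arrays labelled pregnant and -4.28 ± 1.17 on those labelled non-pregnant (SD, n = 4 each; limma, adjusted p = 5.58e-04). Neither that call nor that minimum held under normexp background correction, which gave -0.63 (limma, adjusted p = 0.0954).

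BARD1, the obligate partner of BRCA1, had -1.05, -0.75, -0.71 and -2.56 on the arrays labelled pregnant and -0.29, -0.28, -1.35 and -1.38 on those labelled non-pregnant. The groups overlapped, array 4 being the lowest of its group, and the difference of -0.44 ± 0.47 (SE, limma, adjusted p = 0.437) had an interval of -1.50 to 0.62. PALB2, the link between BRCA1 and BRCA2, had 0.89, 0.69, 0.70 and 0.60 on the arrays labelled pregnant, against 1.15, 0.98, 1.06 and 0.87. Array 1 of the first group reached into the range of the second, and the difference was -0.29 ± 0.16 (SE, limma, adjusted p = 0.150, interval -0.67 to 0.08). Under median scaling PALB2 gave -0.68 and passed the test (limma, adjusted p = 0.0225).

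RAD51C, XRCC2 and XRCC3, related proteins that assist strand exchange, were not alike: 2 of the 3 fell, against 33.05% of all tested genes. XRCC2 had -2.23, -1.73, -1.51 and -1.46 on the arrays labelled pregnant, and 1.62, 1.50, 1.39 and 1.08 on the arrays labelled non-pregnant. The groups lay far apart, at -3.13 ± 0.23 (SE, limma, adjusted p = 6.22e-06), and its other 2 probes gave -2.36 and -2.21. RAD51C, which forms complexes with either of the other 2 proteins, had -1.94, -2.11, -1.99 and -2.30 on the arrays labelled pregnant and -1.33, -0.63, -1.42 and -0.84 on the others. It was lower without overlap, by 1.03 ± 0.23 (SE, limma, adjusted p = 0.00385), and its second tested probe gave -1.55. XRCC3, the partner of RAD51C in another complex, had 0.76, 0.65, 0.76 and 2.17 on the arrays labelled pregnant, against 1.06, 0.97, 1.25 and 1.05. Arrays 1 to 3 lay below the whole second group and array 4 above it, so that the difference was 0.00 ± 0.34 (SE, limma, adjusted p = 0.999, interval -0.77 to 0.77). Without array 4 it was -0.36 (adjusted p = 0.0935).

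In end resection 3 of 4 genes fell and NBN rose, against 33.05% of all tested genes lower and 29.6% higher. The nuclease EXO1 had the largest fitted difference of the 31 genes. EXO1, which degrades 1 strand over long stretches, had -5.41, -5.70, -5.65 and -7.52 on the arrays labelled pregnant and -0.27, -0.31, 0.00 and -0.42 on the arrays labelled non-pregnant. Its only probe (chr16:32302341-32302400) was well above background on 0 of the first 4 and on all of the second 4, with array 4 the lowest. With the floor set out under processing, EXO1 was at least 49.9-fold lower (limma, adjusted p = 7.14e-06), but it passed the filter only through the arrays labelled non-pregnant. Its measured means were -6.07 ± 0.98 and -0.25 ± 0.18 for the labelled pregnant and labelled non-pregnant arrays (SD, n = 4 each). Over the alternatives its fitted difference was -6.30 to -3.43, so that minimum did not hold under all of them. RBBP8, known as CtIP, which starts resection with the MRE11 nuclease, had -3.06, -3.28, -3.30 and -2.56 on the arrays labelled pregnant and -1.07, -1.80, -2.47 and -1.57 on the others. The groups came close at 1 array each without overlapping, and the difference was -1.33 ± 0.32 (SE, limma, adjusted p = 0.00594).

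MRE11A and NBN encode the nuclease and the signalling subunit of the complex that first binds broken ends. MRE11A was lower by 1.18 ± 0.16 (SE, limma, adjusted p = 2.91e-04), averaging -2.60 ± 0.17 on the arrays labelled pregnant and -1.43 ± 0.04 on the others (SD, n = 4 each). Its second probe, shown above and well above background on 0 arrays labelled pregnant, gave -0.98 (adjusted p = 0.110). NBN had 3.11, 2.998, 3.04 and 2.23 on the arrays labelled pregnant, against 2.57, 1.68, 1.88 and 0.77 on the arrays labelled non-pregnant. It was higher by 1.12 ± 0.38 (SE, limma, adjusted p = 0.0303), with labelled pregnant array 4 and labelled non-pregnant array 1 overlapping. All 5 NBN probes were higher on the arrays labelled pregnant, by 0.27 to 1.12, but only 2 of them passed the test and the third probe, shown above, gave 0.33. Of the 5 probes, 2 share 19 positions of the genome and gave 0.27 and 0.32. The NBN call ended when any of 6 of the 8 arrays was left out, at adjusted p of 0.0502 to 0.0746, and with median scaling, at 0.73 (adjusted p = 0.176).

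**Figure D2:**
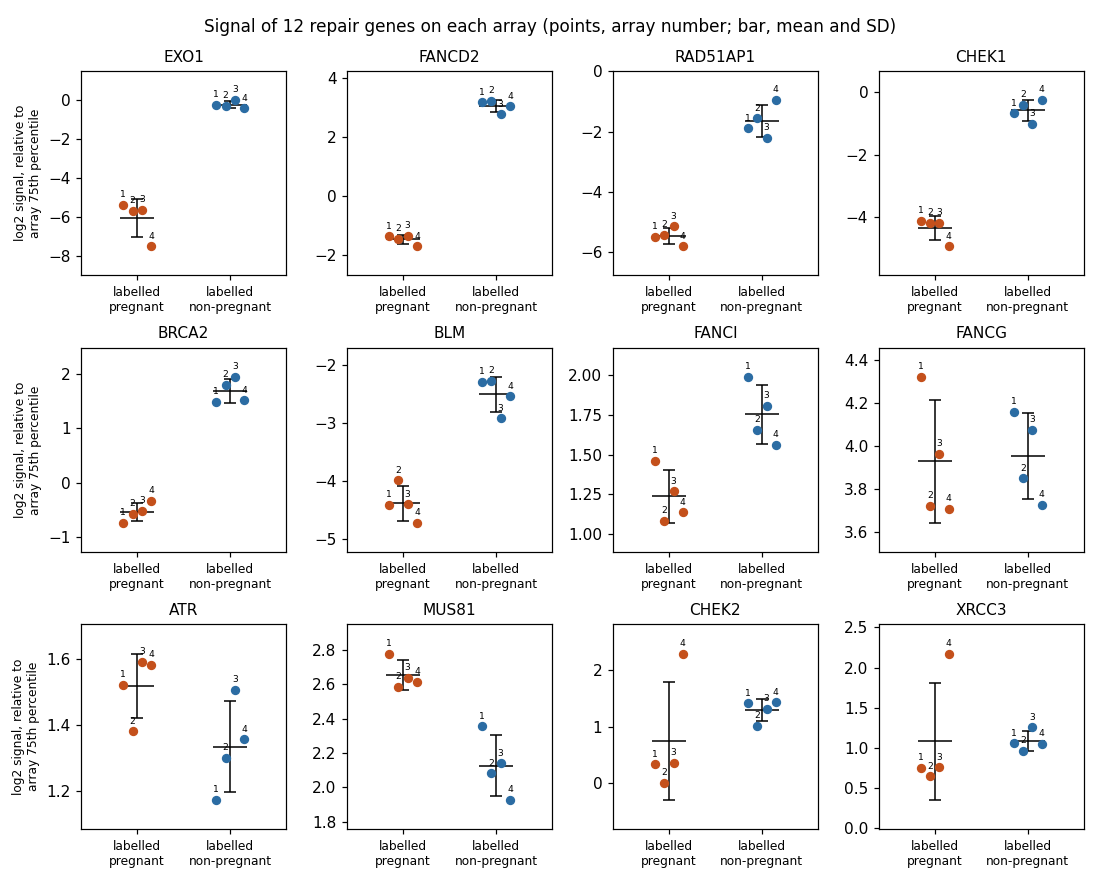
Log2 signal of 12 genes relative to the 75th percentile of each array, with the arrays labelled pregnant on the left and those labelled non-pregnant on the right of each panel, numbered by replicate, and the mean and SD as bars (each panel has its own axis). EXO1, FANCD2, RAD51AP1, CHEK1, BRCA2 and BLM show groups far apart, while labelled pregnant array 4 stands above both groups for CHEK2 and XRCC3.

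In the Fanconi core complex, the ubiquitin ligase that acts at crosslinked DNA, 1 of 7 tested genes fell and 0 rose (limma). The shares of all tested genes were 33.05% and 29.6%, and the median difference of the 7 was -0.47. That count depended on the scaling. Under median scaling FANCA (-0.86), FANCE (-1.06) and FANCM (-0.89) were also called lower (limma, adjusted p = 0.0194, 0.0161 and 0.0138). The share of all tested genes lower was then 41.1%. FANCL, its catalytic subunit, had -6.04, -4.07, -4.20 and -3.98 on the arrays labelled pregnant and -3.80, -2.86, -3.51 and -2.73 on those labelled non-pregnant. The groups did not overlap, array 1 was far below the others of its group, and the probe cleared background on 3 of the 4 arrays labelled pregnant. The difference of -1.35 ± 0.48 (SE, limma, adjusted p = 0.0375) lost its call under 5 alternatives, among them normexp background correction, which gave -0.43 (adjusted p = 0.0584).

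FANCE, the subunit that binds FANCD2, had 1.02, 0.28, 0.38 and 1.27 on the arrays labelled pregnant, against 1.64, 1.22, 1.72 and 1.07. Arrays 1 to 3 lay below the second group and array 4 within it, and the difference was -0.68 ± 0.28 (SE, limma, adjusted p = 0.0645, interval -1.31 to -0.04). Without array 4 it was -0.85 and passed the test (adjusted p = 0.0230), but its second probe gave -0.03 over all 8 arrays (adjusted p = 0.948). FANCM, the DNA translocase that anchors the complex, had -3.94, -4.19, -4.28 and -3.42 on the arrays labelled pregnant and -3.81, -3.73, -3.42 and -2.84 on the arrays labelled non-pregnant. The groups overlapped, at -0.51 ± 0.28 (SE, limma, adjusted p = 0.152, interval -1.15 to 0.14).

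FANCA, a scaffold subunit, had -4.56, -5.58, -4.76 and -5.34 on the arrays labelled pregnant, against -4.84, -4.78, -4.58 and -4.16. The ranges overlapped and the difference was -0.47 ± 0.28 (SE, limma, adjusted p = 0.172, interval -1.10 to 0.16). FANCG, which binds FANCA, had 4.32, 3.72, 3.96 and 3.71 on the arrays labelled pregnant and 4.16, 3.85, 4.08 and 3.73 on those labelled non-pregnant. The second range lay inside the first, and the difference was -0.02 ± 0.21 (SE, limma, adjusted p = 0.929, interval -0.49 to 0.45). FANCF, an adaptor subunit, had -4.61, -5.42, -5.95 and -4.84 on the arrays labelled pregnant and -6.19, -5.14, -4.83 and -4.23 on the others. It was well above background on 2 and 3 arrays of the labelled pregnant and labelled non-pregnant groups, which overlapped, at -0.10 ± 0.45 (SE, limma, adjusted p = 0.852, interval -1.12 to 0.91).

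FANCC, which joins FANCE and FANCF in a subcomplex, had 0.44, -0.72, -0.37 and 1.98 on the arrays labelled pregnant, against -0.16, -0.21, 0.15 and -0.05 on the arrays labelled non-pregnant. The first group was spread on both sides of the second, and the difference of 0.40 ± 0.52 (SE, limma, adjusted p = 0.531, interval -0.79 to 1.58) became -0.15 without array 4. FANCB, a subunit of the catalytic module, had -7.45, -7.22, -7.74 and -7.93 on the arrays labelled pregnant and -8.17, -8.56, -8.04 and -8.51 on the others, not well above background on any array.

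The proteins that the core complex marks, FANCD2 and FANCI, form 1 clamp on DNA but differed by unequal amounts. FANCD2 had -1.37, -1.46, -1.35 and -1.70 on the arrays labelled pregnant and 3.17, 3.22, 2.76 and 3.03 on the arrays labelled non-pregnant. Both groups were tight and far apart: FANCD2 (probe at chr22:17163809-17163868) was 22.9-fold lower, at -4.52 ± 0.18 (SE, limma, adjusted p = 3.49e-07). A second probe, well above background on 0 arrays labelled pregnant, gave -4.67. FANCI had 1.46, 1.09, 1.27 and 1.14 on the arrays labelled pregnant, against 1.99, 1.66, 1.80 and 1.56. It was lower without overlap, by 0.51 ± 0.18 (SE, limma, adjusted p = 0.0349), while its second probe gave -0.43 (adjusted p = 0.0626). Leaving out any of 6 of the 8 arrays ended the FANCI call, at adjusted p of 0.0595 to 0.0996. BRIP1, a helicase that binds BRCA1, had -7.38, -7.17, -7.73 and -7.72 on the arrays labelled pregnant and -6.74, -8.52, -8.10 and -8.62 on the others, not well above background on any.

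Of the 3 genes of this set that act in separating joined chromosomes, BLM fell, MUS81 rose and EME1 did not pass the test. BLM, the helicase mutated in Bloom syndrome, had -4.41, -3.99, -4.41 and -4.73 on the arrays labelled pregnant and -2.29, -2.28, -2.93 and -2.55 on the arrays labelled non-pregnant. The groups did not overlap and differed by -1.87 ± 0.23 (SE, limma, adjusted p = 1.32e-04). MUS81, the catalytic subunit of a nuclease that cuts branched DNA, had 2.78, 2.58, 2.64 and 2.61 on the arrays labelled pregnant, against 2.36, 2.08, 2.14 and 1.93 on the others. It was higher without overlap on both of its probes, by 0.53 ± 0.17 (SE, limma, adjusted p = 0.0240) and 0.69 (adjusted p = 0.0110). Under median scaling the first fell short of the test at 0.14, and leaving out any of 4 arrays gave adjusted p of 0.0509 to 0.0638. EME1, the partner of MUS81, had 1.37, 0.95, 0.97 and 1.68 on the arrays labelled pregnant and 1.50, 1.45, 2.07 and 1.55 on those labelled non-pregnant. Array 4 lay among the second group, and the difference was -0.40 ± 0.24 (SE, limma, adjusted p = 0.176, interval -0.94 to 0.14). Under median scaling EME1 gave -0.78 and passed the test (limma, adjusted p = 0.0251).

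Of the 6 checkpoint genes 4 fell, against 33.05% of all tested genes, and ATR and CHEK2 did not pass the test. CHEK1, the kinase that restrains the cell cycle and origin firing when replication stalls, had -4.11, -4.18, -4.17 and -4.92 on the arrays labelled pregnant and -0.68, -0.40, -1.01 and -0.26 on the arrays labelled non-pregnant. CHEK1 (probe at chr29:30598599-30598658) was 13.5-fold lower with no overlap, at -3.75 ± 0.26 (SE, limma, adjusted p = 4.39e-06), and a second probe gave -3.46. CLSPN, or claspin, the adaptor through which ATR reaches CHEK1, had -7.52, -7.27, -7.79 and -8.00 on the arrays labelled pregnant, against -5.61, -5.55, -5.33 and -3.91. Its probe was well above background on 0 of the first 4 arrays and on all of the second 4. With the same floor CLSPN was at least 2.56-fold lower (limma, adjusted p = 4.70e-04). Its measured means were -7.64 ± 0.32 and -5.10 ± 0.80 for the labelled pregnant and labelled non-pregnant arrays (SD, n = 4 each). Neither the call nor that minimum held under normexp background correction, which gave -0.21 (limma, adjusted p = 0.445). TOPBP1, the activator of ATR, was lower by 1.83 ± 0.20 (SE, limma, adjusted p = 5.85e-05). ATM, the kinase that responds to breaks, was lower by 0.99 ± 0.18 (SE, limma, adjusted p = 0.00149).

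ATR, the kinase at the head of the replication stress response, had 1.52, 1.38, 1.59 and 1.58 on the arrays labelled pregnant and 1.17, 1.30, 1.51 and 1.36 on those labelled non-pregnant. The groups overlapped and the difference was 0.18 ± 0.16 (SE, limma, adjusted p = 0.353, interval -0.19 to 0.56). It was -0.20 under median scaling, so its direction depended on the scaling. CHEK2, the kinase activated by ATM, had 0.33, 0.00, 0.36 and 2.30 on the arrays labelled pregnant, against 1.42, 1.02, 1.31 and 1.43. Arrays 1 to 3 lay below the second group and array 4 above it, and the difference was -0.55 ± 0.46 (SE, limma, adjusted p = 0.331, interval -1.60 to 0.50). Without array 4 CHEK2 fell by 1.06 (adjusted p = 0.00183), but its second probe gave 0.94 (adjusted p = 0.152) over all 8 arrays, with array 4 at 1.52 and the other 3 at -1.03 to -0.42.

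Labelled pregnant array 4 set several of these values. Its value minus the mean of the other 3 arrays of its group was 2.20 for FANCC, 2.06 for CHEK2 and 1.45 for XRCC3, and -1.93 for EXO1 and -1.73 for BARD1. EXO1 was not well above background on any array labelled pregnant, so its offset is among values below detection. Without it 18 genes fell and 2 rose, against 33.5% and 30.6% of all tested genes. The second probes of CHEK2 and FANCC were also highest on array 4, so the displacement was not that of a single probe for these genes.

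Of the 66 probes 53 were tested. The others were too dim to test and do not enter the agreement given here. Among them were probes of FANCD2, TOPBP1, PALB2, EME1 and RBBP8, whose brightest probes were tested. Of the 17 genes with more than 1 tested probe, 14 had the same call on every tested probe and none was called in opposite directions. MRE11A, FANCI and NBN had a call on some probes only. CHEK2 and XRCC3 had tested probes of opposite sign, neither called.

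**Figure D3:**
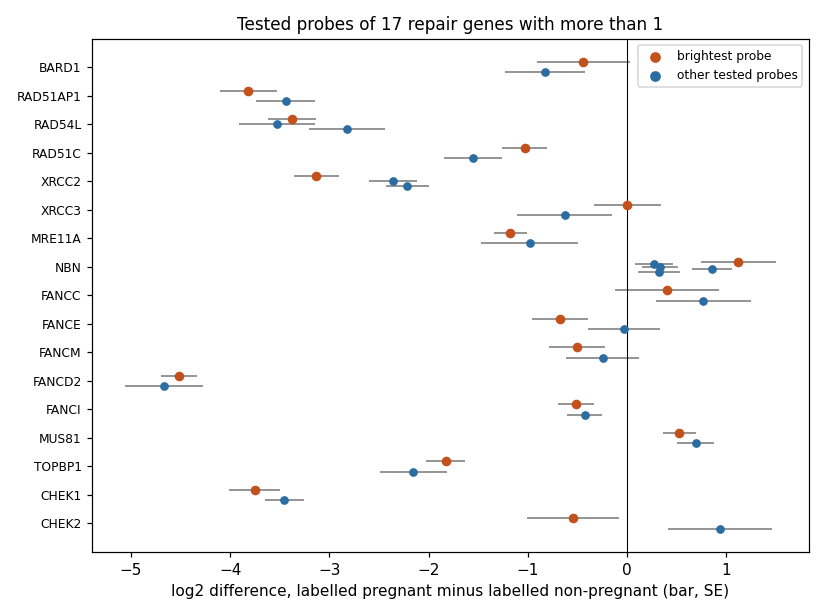
Log2 differences, arrays labelled pregnant minus arrays labelled non-pregnant, of every tested probe of the 17 genes with more than 1, with SE bars and the brightest probe in orange. Probes of 1 gene lie close together for RAD54L, FANCD2 and CHEK1 and lie on opposite sides of 0 for CHEK2.

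Pairs of related genes were compared within each array, as the change in the log2 ratio of their probes, which no constant added to an array can change. Not all pairs encode partners. CHEK1 and CHEK2, and ATM and ATR, belong to different checkpoint branches, and XRCC2 and XRCC3 to different complexes. The 8 pairs were chosen after the values were seen and carry no test. The ratio on the arrays labelled pregnant minus that on the arrays labelled non-pregnant was -4.00 for FANCD2 over FANCI. CHEK1 over CHEK2 gave -3.21, XRCC2 over XRCC3 -3.13 and MRE11A over NBN -2.30. BRCA1 over BARD1, where BRCA1 has only a bound, gave -2.83, but -0.22 with normexp background correction. BRCA2 over PALB2 gave -1.93 and ATM over ATR -1.18, while MUS81 over EME1 gave 0.92. The sign of a ratio follows from which gene is written first, so only its size carries meaning here. With the mean of all tested probes of each gene, XRCC2 over XRCC3 gave -2.25 and MRE11A over NBN -1.66. A ratio within an array shows unequal change of the paired genes and does not say which of them moved.

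**Figure D4:**
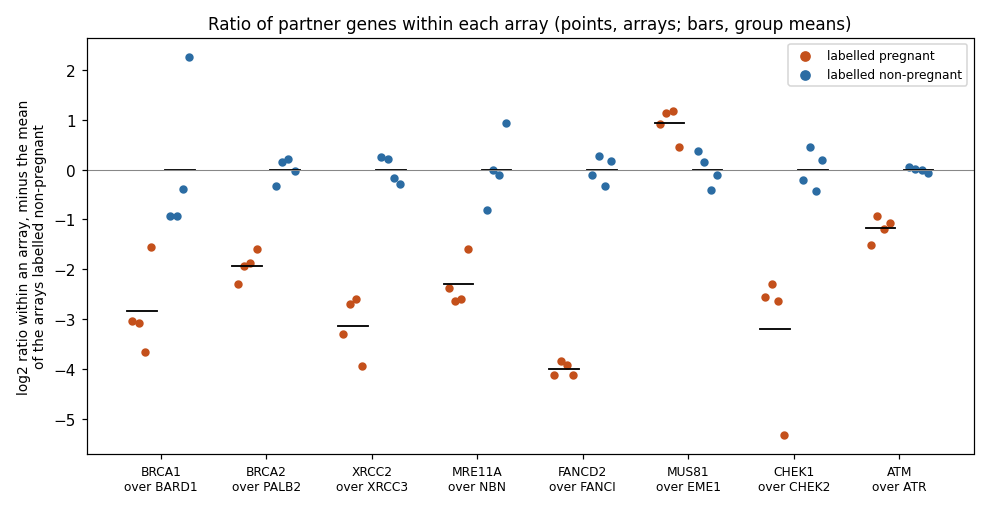
Log2 ratio of 8 pairs of related genes, not all of them partners, on each array, minus the mean of the arrays labelled non-pregnant. The arrays labelled pregnant are to the left in each pair, with bars at group means. FANCD2 over FANCI lies near -4.00 on every array labelled pregnant, while CHEK1 over CHEK2 is spread by array 4.

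Of 73 tested other genes of the same pathways 32 fell and 12 rose, with a median difference of -0.38, beside 33.05% lower and 29.6% higher among all tested genes. In recombination and end processing 14 of 29 fell and 3 rose (median -0.45). POLQ, the polymerase of microhomology-mediated joining, was at least 8.10-fold lower, with measured means of -6.96 on the arrays labelled pregnant and -3.42 on the others (limma, adjusted p = 1.60e-05), and the resection nuclease DNA2 fell by 3.46 (adjusted p = 3.15e-06). POLQ passed the filter only through the arrays labelled non-pregnant. ZSWIM7 and SFR1, which assist strand exchange, rose by 2.26 (limma, adjusted p = 9.55e-05) and 1.41 (adjusted p = 7.94e-04). The checkpoint list held 9 lower and 2 higher of 16 (median -0.73). Its phosphatases CDC25C and CDC25A, which drive the cell cycle forward and are targets of the checkpoint, fell by 6.08 (limma, adjusted p = 4.10e-06) and 3.82 (adjusted p = 4.28e-06), with CDC25C well above background on 1 array labelled pregnant. The ATR activator ETAA1 rose by 0.98 (limma, adjusted p = 0.00339) and the kinase CDC7, which fires replication origins, by 0.69 (adjusted p = 0.0232).

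Of the other Fanconi genes 4 of 14 were lower and 4 higher (median -0.13), near the 33.05% and 29.6% of all tested genes. CENPX and CENPS, histone-fold proteins that bind FANCM, fell by 2.48 (limma, adjusted p = 1.45e-05) and 2.07 (adjusted p = 1.55e-04). REV3L and MAD2L2, the subunits of the translesion polymerase zeta, rose by 2.48 (limma, adjusted p = 2.09e-04) and 1.30 (adjusted p = 0.00446). Break signalling genes were lower for 5 and higher for 3 of 14 (median -0.05). The histone variant H2AX fell by 2.27 (limma, adjusted p = 1.30e-05) and RIF1, which restrains resection, by 1.79 (adjusted p = 5.99e-04). UIMC1, which carries BRCA1 to ubiquitin marks, rose by 0.83 (limma, adjusted p = 0.0197) and the ubiquitin ligase RNF168 by 0.53 (adjusted p = 0.0295).

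Of 53 tested genes of other repair pathways 20 fell and 11 rose, with a median of -0.27, beside 33.05% lower and 29.6% higher among all tested genes. End joining, which needs no sister strand, had 2 lower and 3 higher of 11 (median 0.14). NHEJ1 and POLM fell by 1.07 (limma, adjusted p = 0.00122) and 1.06 (adjusted p = 0.0189), while XRCC5, a Ku subunit, and the ligase LIG4 rose by 1.02 (adjusted p = 0.00844) and 0.89 (adjusted p = 0.00165). Nucleotide excision repair had 9 lower and 3 higher of 17 (median -0.66). The damage sensor subunit DDB1 and the transcription-coupled repair factor ERCC6 fell by 2.68 (limma, adjusted p = 1.52e-05) and 2.39 (adjusted p = 3.22e-05), and the lesion sensors DDB2 and XPC rose by 1.49 (adjusted p = 0.00600) and 0.91 (adjusted p = 0.00205).

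Base excision repair had 7 lower and 5 higher of 19 (median -0.20). The glycosylases NEIL3, well above background on 1 array labelled pregnant, and TDG fell by 3.47 (limma, adjusted p = 7.40e-04) and 1.22 (adjusted p = 0.00125). The endonuclease APEX2 and the glycosylase NEIL2 rose by 1.19 (limma, adjusted p = 0.00177) and 1.16 (adjusted p = 0.00539). Differences between these lists were not tested.

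**Figure D5:**
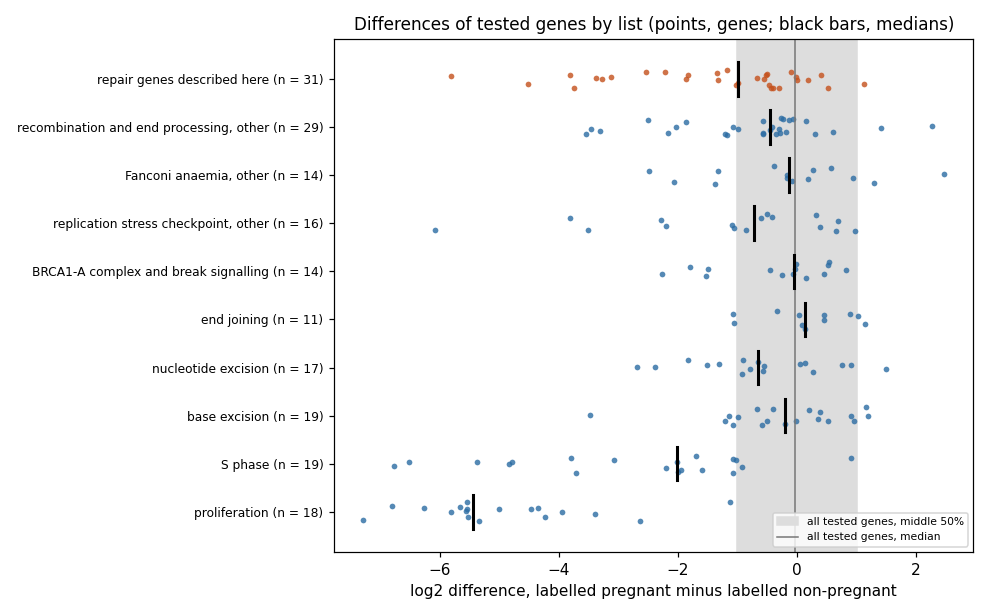
Log2 differences, arrays labelled pregnant minus arrays labelled non-pregnant, of the tested genes of each list (points) with list medians (black bars), against the middle of all tested genes (grey band). The median is -0.99 for the 31 recombination and replication stress genes, between those of the other pathway and repair lists (-0.73 to 0.14) and those of the S phase (-2.01) and proliferation lists (-5.44).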

How the data were processed

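RNA of 8 samples was primed with oligo-dT, labelled with Cy3 by the Quick-Amp kit and hybridised to 1-colour Agilent bovine arrays, per the labels' protocols. The deposited spot intensity values come from Agilent Feature Extraction 11.5.1.1, with background subtracted and no scaling between arrays, per the file headers. The deposited flags for spots well above background, outliers and saturation are other per-spot values of 0 or 1. A second table that the authors deposited holds log2 values. Against log2 of the processed intensity its columns correlated at 0.999 to 1.000 and sat at a 75th percentile of about 0, from which its scale and centring were inferred. Its column medians were -3.56, -3.61, -3.64 and -3.61 for the arrays labelled pregnant and -4.21, -4.01, -4.00 and -3.77 for those labelled non-pregnant.

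Control and outlier spots were left out, log2 values of 1 probe were averaged, and each array's 75th percentile was subtracted. A probe was tested where it cleared background on 4 or more of the 8 arrays, as 34627 did. A probe that cleared background in 1 group alone entered through the group where it was high, so its call is no independent support. Among these were the probes of BRCA1, EXO1, CLSPN, POLQ, BUB1 and CENPF. Groups, taken from the pregnancy status in the labels, were compared by lmFit and eBayes without covariates (limma 3.58.1, R 4.3.3), and p-values were adjusted by Benjamini-Hochberg across every tested probe. The step was first tested on simulated data. For a gene that cleared background on 0 arrays of a group, "at least N-fold" sets the brighter group's mean against a floor averaged over the dim arrays. On each dim array that floor is the larger of 2 signals, the probe's own and the faintest that cleared background there. Some probes brighter than that faintest signal did not clear background, so the fold is no strict minimum. It holds for the main processing only, and alternatives gave smaller differences for BRCA1, EXO1 and CLSPN. Gene names are those of the files or come from RefSeq cattle records (ARS-UCD2.0, names only). The records were reached through the main accession for 28112 probes, another accession for 1770 and a synonym for 149. The 3 probes that matched several genes were left unnamed.

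The members, lists and tests were chosen with earlier results of these data known. Values per array are given for the 2 tested genes of each role with the largest difference and for those not called, higher or not tested, and of each other list the 2 called genes with the largest difference in each direction are named. Some called genes of the other lists, and 1 short list, are not reported here. Not found by name were MKI67, TOP2A, MCM2, SWI5, TICRR, REV1, MLH3, PARP2, HOXA11 and UTMP. Of 15 tested leukocyte genes 9 were higher and 2 lower (summed level 5.75 to 7.05 on the arrays labelled pregnant, 6.16 to 6.63 on the others), and of 9 erythroid genes 8 were lower (0.69 to 1.91, against 8.40 to 9.24). Alternatives changed the background correction, scaling, filter, probe of a gene, variance model and samples. Same-numbered arrays of the groups had correlations of their deviations of 0.0090 to 0.155, so the numbers were not taken to pair them.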

Additional observations from a re-analysis of the deposited data

Results flagged for a closer look

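In 66 groups of 4 arrays (33 genes, both groups), 9 arrays stood apart by Dixon's test at 95%, and chance flags about 1 in 20 groups. Of the 9, 5 were labelled pregnant array 4. It was high for XRCC3, at 2.17 against 0.65 to 0.76 on the other 3, and for CHEK2, at 2.30 against 0.00 to 0.36. It was low for NBN, at 2.23 against 2.998 to 3.11, for EXO1, at -7.52 against -5.70 to -5.41, and for CHEK1, at -4.92 against -4.18 to -4.11. The low NBN value is that of the brightest probe alone. On the other NBN probes labelled pregnant array 4 was the highest of its group, at 2.72, 2.01, 1.77 and 1.55. For EXO1 no array labelled pregnant was well above background, so that flag concerns values below detection. Labelled pregnant array 1 was low for FANCL, at -6.04 against -4.20 to -3.98, and for TOPBP1, at -0.52 against -0.20 to -0.15. Labelled non-pregnant array 2 was low for RAD54L, at -0.49 against 0.32 to 0.42. Labelled non-pregnant array 4 was high for CLSPN, at -3.91 against -5.61 to -5.33.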

How the results depend on the processing

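The genes called lower were 12 to 22 over the alternatives, 12 of them among 24 tested under the strict filter, and 15 to 18 when 1 array was left out. The share of all tested genes lower moved too, from 26.1% without a filter to 42.2% without scaling. It was 33.5% under the strict filter and 29.7% to 34.3% with 1 array left out. Repair genes called higher were 0 under median scaling and without scaling, 3 without a filter, and 0 to 2 with 1 array left out, against 2. The share of all tested genes higher was 21.7% under median scaling, 19.2% without scaling and 31.5% without a filter. With 1 array left out it was 26.5% to 30.6%. The median difference of the 31 genes was -0.83 with the 75th percentile over probes detected on all arrays, -1.38 with median scaling, -1.48 without scaling, -0.68 without a filter, -0.61 under the strict filter, -0.55 with normexp and -1.05 to -0.86 with 1 array left out. These scalings moved the median of all genes to 0.13, -0.42 and -0.52. For the other pathway genes they gave medians of -0.22, -0.77 and -0.87, and for the other repair genes -0.10, -0.65 and -0.75, with -0.065 under normexp and -0.084 under quantile normalization. Other pathway genes called higher were 4 with median scaling, 3 without scaling and 6 to 12 with 1 array left out (6 without labelled pregnant array 1), against 12. Other repair genes called higher were 4 and 0 under the same scalings, against 11. With the replicate number as a block, 17 genes were lower and 2 higher, and the other pathway genes 28 and 11, against 31.9% and 29.0% of all tested genes. The cause of these shifts was not tested, apart from the fewer genes under the strict filter.

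Over all combinations of a gene and an alternative, 537 kept the direction and the side of the threshold, 29 lost a call, 20 gained one and 27 changed sign. The gained calls were all lower. FANCE gained a call under 6 alternatives, PALB2, FANCA, FANCM and EME1 under 3 each and CHEK2 under 2. Signs turned for genes not called. ATR gave -0.20 with median scaling and -0.30 without scaling, CHEK2 0.19 with the mean of its probes and FANCA 0.051 with normexp. FANCC gave -0.18 with array weights and -0.085 without scaling, FANCF 0.060 with the detected-probe percentile and 0.23 with normexp, and FANCG 0.14 with that percentile, 0.0030 with array weights and 0.47 with quantile normalization. XRCC3 gave -0.26 with array weights, -0.0015 with the authors' values, -0.31 with the mean of its probes, -0.39 with median scaling and -0.48 without scaling. With 1 array left out, FANCC ranged from -0.15 to 0.75, FANCF from -0.47 to 0.19, FANCG from -0.16 to 0.050 and XRCC3 from -0.36 to 0.15. The comparison within slides or scans was not run, since all arrays share 1 slide and 1 scan. Signal over background limits BRCA1, EXO1 and CLSPN, which have only bounds, and these hold for the main processing only. Other large differences also shrank under alternatives but stayed called lower. The smallest were -2.10 for RAD51AP1, -2.59 for CHEK1, -2.57 for XRCC2, -2.82 for RAD54L and -1.04 for BLM. The count of genes at least 8-fold lower therefore belongs to the main processing too.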
